A study of Homo sapiens with 42 samples.

Results

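The 37 genes described here are NF-kB subunits, their inhibitors and regulators, and inflammatory genes that NF-kB is known to control. They are a list of gene symbols drawn up with earlier results of these data known, with no measured value in its rule, and all 37 were found among the 35057 genes of the table. The study measured poly(A)-selected RNA in 42 libraries from human cell lines in which RNA polymerase III or its regulators had been perturbed. There were 14 groups of 3 libraries, 10 groups in HEK293T, a line from embryonic kidney, and 4 in THP-1, a monocytic leukaemia line. THP-1 cells received ML-60218, a small-molecule inhibitor of RNA polymerase III, at 25 µM for 4 h. Others received cycloheximide (CHX), which blocks translation, at 10 µg/ml for 4.5 h, and others both agents or DMSO. The labels name no inflammatory stimulus in any group and do not say whether CHX cells also received DMSO.

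HEK293T cells were transfected for 48 h in every group. POLR3G, a subunit of RNA polymerase III, was targeted by an antisense oligonucleotide (ASO) at 200 nM against a scramble ASO, or by siRNA at 200 nM against a control siRNA. Its paralog POLR3GL was targeted by siRNAs labelled siE4, siE6 and siE8 at 25 nM, all set against the same 3 control siRNA libraries. MAF1, a repressor of RNA polymerase III, was overexpressed against eGFP. All of these are transient perturbations of whole cultures, with 1 cell line per set, and the labels do not say that replicates came from separate cultures. The p-values therefore measure the spread between these libraries, which may be technical. In bulk RNA, fewer cells expressing a gene and less RNA per cell cannot be told apart.

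NF-kB is a family of dimeric transcription factors built from RELA, REL, RELB and the products of NFKB1 and NFKB2. In resting cells the dimers are held in the cytoplasm by IkB proteins such as IkB alpha. The 4 IkB genes here, NFKBIA, NFKBIB, NFKBIE and NFKBIZ, are grouped by name and not by this action. Signals from receptors of TNF, IL-1 or bacterial products activate the IKK kinase, IkB is degraded, and the dimers enter the nucleus and bind kappaB sites. Among the first genes induced are IkB alpha (NFKBIA) and A20 (TNFAIP3), which shut the signal off again. Monocytes answer such signals with cytokines and chemokines, and many of these mRNAs carry AU-rich elements in the 3′ UTR that mark them for fast decay. Blocking translation has long been known to raise such early mRNAs, a behaviour called superinduction.

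The 3′ UTRs of the genes were read from GENCODE 29 transcripts on GRCh38 and searched for an AU-rich nonamer, TTATTTA followed by 2 bases that are each A or T, on the mRNA strand. It was present in 17 of the 37 genes, or 45.9%, against 2989 of the 14000 genes tested in THP-1 that had a 3′ UTR, or 21.3%. The shorter core ATTTA was found in 78.4% of the 37 genes and in 72.8% of the 14000. Median 3′ UTR length was 813 bases in the 37 genes and 1306 bases in the 14000. The windows below are 30 bases of 3′ UTR each, with the nonamers in capitals, and were chosen because the RNA of these genes carries the THP-1 results. They are the cytokines TNF (chr6:31577998-31578027, plus strand) and IL1B (chr2:112829993-112830022, minus strand) and the chemokine CXCL8 (chr4:73742663-73742692, plus strand). TNFAIP3 (chr6:137882297-137882326, plus strand) and SERPINB2 (chr18:63903571-63903600, plus strand) complete the set.
TNF: gaTTATTTATTATTTATTTATTATTTATTt
IL1B: cttccctatTTATTTATTTATTtgtttgtt
CXCL8: tatgtaaagtaTTATTTATTtgaatctaca
TNFAIP3: tgtaattcactTTATTTATTttattacaaa
SERPINB2: cttttactttgTTATTTATTattttatata
The TNF window holds 4 overlapping nonamers of 5 in that 3′ UTR, and the IL1B window holds 2 of 3. The other windows hold 1 each.

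Promoters came from RefSeq (GRCh38.p14), which gave 45 promoters for 31 of the 37 genes, each 250 bases before to 50 bases after a transcription start. They were searched on both strands for the kappaB consensus. A match was found for 16 of the 31 genes, or 51.6%, against 1937 of 27305 genes of the table, or 7.09%. By promoter the shares were 18 of 45, or 40%, and 2075 of 35116, or 5.91%. The list was drawn up to hold genes that NF-kB is known to control, so a higher share goes with that choice. A match is a description of the letters in this window, and nothing about binding follows from it. The sequences below are from genes that rose in THP-1 or moved in HEK293T, with the matched bases in capitals. Matches that overlap on the 2 strands share bases. Positions are chr6:137867182-137867223 for TNFAIP3, chr14:35404811-35404840 for NFKBIA, chr11:102317275-102317304 for BIRC3, chr4:102501300-102501329 for NFKB1, chr4:74099253-74099283 for CXCL2 and chr6:14117686-14117717 for CD83. Each is written along the strand of its gene.
TNFAIP3: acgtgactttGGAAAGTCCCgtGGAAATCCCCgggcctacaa
NFKBIA: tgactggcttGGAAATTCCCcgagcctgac
BIRC3: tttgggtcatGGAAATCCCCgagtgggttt
NFKB1: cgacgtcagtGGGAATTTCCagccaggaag
CXCL2: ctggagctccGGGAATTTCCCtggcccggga
CD83: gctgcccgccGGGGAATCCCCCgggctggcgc

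Levels differed widely among the genes. In DMSO-treated THP-1 cells, levels per transcript length and depth (TPM) were highest for SERPINB2, an inhibitor of plasminogen activators, at 62.6 ± 3.52 TPM (SD, n = 3). The chemokine CCL5 followed at 59.6 ± 0.933 TPM and TNFAIP2 at 57.6 ± 4.12 TPM. These neighbours differed by less than the larger of their SDs. NFKBIA was at 45.5 ± 1.04 TPM, RELA, the main activating subunit, at 43.1 ± 0.992 TPM, and CCL2 at 35.1 ± 3.73 TPM. At the low end stood CXCL10 at 0.0507 TPM, IL1A at 0.0346 TPM and IL6, which had no read in any DMSO library. Having no read allows IL6 up to 0.0839 CPM in the DMSO library where this limit is highest, counting 3 reads as the limit, which covers counting error only. In HEK293T, medians were taken over all 30 libraries, perturbed and control together. They were 37.6 TPM for RELA, 33.3 TPM for TNIP1, 24.3 TPM for BIRC2, 21.7 TPM for NFKBIA and 17.1 TPM for NFKBIB. CCL2, CCL3, CCL4, CXCL10, IL1A, IL1B, IL6 and SERPINB2 stayed at or below 0.39 TPM in every HEK293T library and were not tested there. The HEK293T libraries thus held RNA of the subunits and IkB proteins and little or none of these 8 genes.

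Libraries held 32705684 to 52568088 estimated reads, and the 12 THP-1 libraries 37763779 to 44762618. The perturbed genes followed their labels. POLR3G averaged 8.36 CPM (reads scaled to library size) with the ASO against 23.6 CPM with scramble, and 14.1 CPM with its siRNA against 33.6 CPM with control. POLR3GL averaged 2.83 CPM with siE4, 3.28 CPM with siE6 and 2.55 CPM with siE8, against 33.3 CPM in their control. MAF1 averaged 3011 CPM when overexpressed against 40.4 CPM with eGFP. It was also at 9.61 CPM with POLR3G siRNA against 48.8 CPM in its control, and both ways of targeting POLR3G also lowered POLR3GL, by 0.45 on the log2 scale with the ASO and by 0.57 with the siRNA. POLR3G in turn fell by 0.84 with siE4, by 0.56 with siE6 and by 0.93 with siE8 on the log2 scale. None of the knockdowns was thus limited to the gene it targeted. All 12 monocytic markers reached 1 CPM in each THP-1 group, and all 6 HEK293T markers did so in each HEK293T group.

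Treatment of THP-1 with the inhibitor addressed the first question, what 4 h of ML-60218 did to these genes. Inhibition of RNA polymerase III itself was not measured here. Of the 36 tested genes, 16 were higher with ML-60218 and 1 was lower. Over all 15607 genes tested, 9.07% were higher and 7.54% lower. The summed level of the 12 monocytic markers was 5930 to 6131 CPM with ML-60218 and 5946 to 6499 CPM with DMSO. The median log2 fold change was 0.263 over the 36 genes and -0.009 over all genes. The genes that rose were 2 of 5 subunits, 3 of 4 IkB proteins, 2 of 3 feedback regulators, 1 of 4 signalling proteins and 2 of 3 surface proteins. Of the secreted factors, 2 of 3 tested cytokines and 2 of 5 CC chemokines rose, and none of 5 CXC chemokines passed edgeR's test, though CXCL8, CXCL1 and CXCL10 were higher at an unadjusted p under 0.05. Calls here are from edgeR's quasi-likelihood test at a Benjamini-Hochberg adjusted p under 0.05 over all genes.

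**Figure D1:**
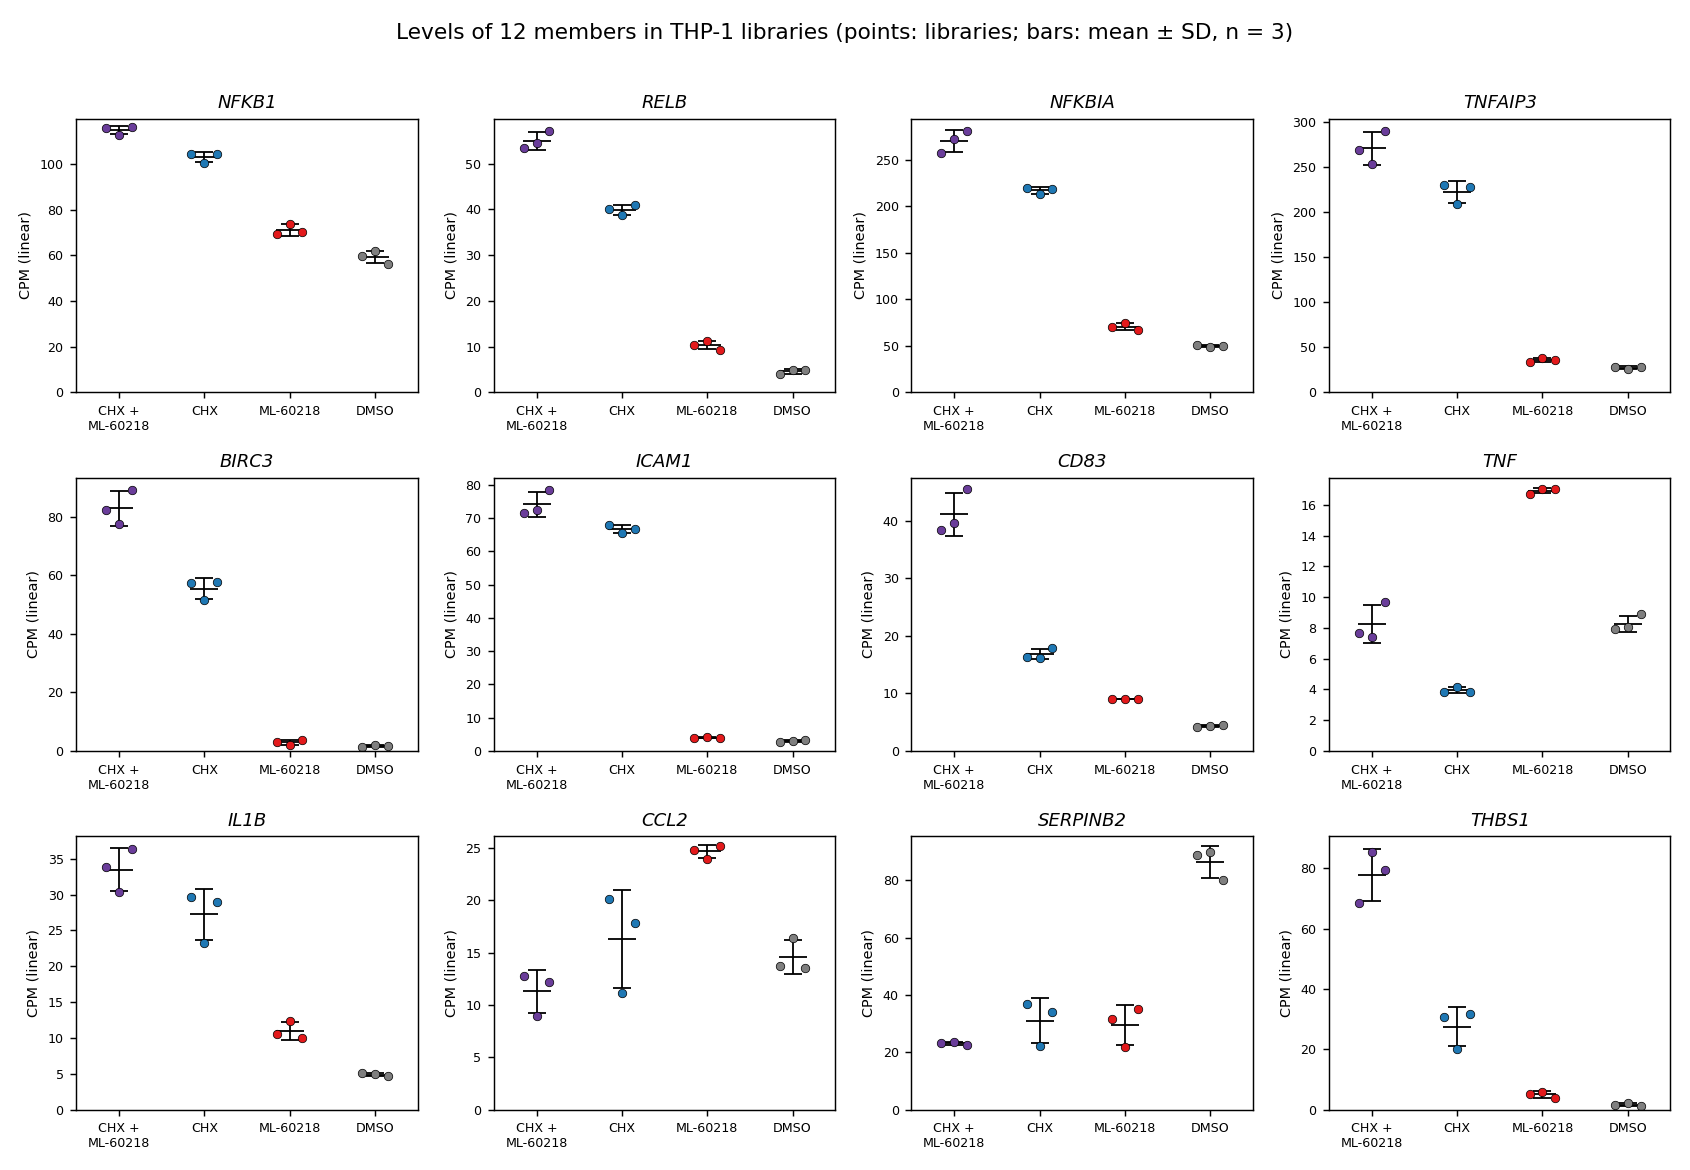
Level of 12 of the genes in the 4 THP-1 groups, in CPM on a linear axis from 0, with a point for each library and bars for the mean ± SD (n = 3). TNF lies between 16.7 and 17.1 CPM with ML-60218 and between 7.91 and 8.88 CPM with DMSO, while SERPINB2 is lower with ML-60218 than with DMSO.

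Among the subunits, RELB, which pairs with the NFKB2 product, had 10.3, 11.1 and 9.33 CPM with ML-60218, against 3.997, 4.88 and 4.76 CPM with DMSO. The groups did not overlap, and its log2 fold change was 1.17 ± 0.079 (SE; edgeR adjusted p = 4.23e-08). NFKB1 had 69.2, 74.0 and 70.3 CPM with ML-60218, against 59.8, 61.8 and 56.5 CPM with DMSO, a smaller rise of 0.26 ± 0.038 (edgeR adjusted p = 0.000109). RELA had 60.9, 65.7 and 62.3 CPM with ML-60218, against 63.6, 61.5 and 61.3 CPM with DMSO. Those ranges overlapped, and RELA did not pass the test (log2 0.02, edgeR adjusted p = 0.776).

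Inhibitors of the pathway rose as well. NFKBIA had 70.5, 73.9 and 66.6 CPM with ML-60218, against 50.4, 48.7 and 49.8 CPM with DMSO. Every ML-60218 library lay above every DMSO library, at log2 0.50 ± 0.041 (edgeR adjusted p = 3.92e-07). TNFAIP3, the ubiquitin-editing enzyme A20, had 34.0, 37.6 and 35.96 CPM with ML-60218, against 28.4, 25.3 and 28.1 CPM with DMSO (log2 0.40 ± 0.070, edgeR adjusted p = 0.00185). BIRC3, a signalling protein described further with CHX, had 2.91, 2.14 and 3.66 CPM with ML-60218, against 1.48, 2.04 and 1.80 CPM with DMSO (log2 0.70 ± 0.21, edgeR adjusted p = 0.047). ZC3H12A, an RNase that cuts inflammatory mRNAs, rose by log2 0.44 (edgeR adjusted p = 0.000335). NFKBIB and NFKBIE, further IkB proteins, rose by log2 0.24 and 0.15.

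Of the cytokines, TNF had 16.7, 17.1 and 17.0 CPM with ML-60218, against 7.91, 8.07 and 8.88 CPM with DMSO. Its 2.05-fold rise (log2 1.03 ± 0.088, edgeR adjusted p = 4.83e-07) was far larger than the spread in either group. IL1B had 10.5, 12.4 and 10.0 CPM with ML-60218, against 5.12, 4.93 and 4.65 CPM with DMSO (log2 1.17 ± 0.124, edgeR adjusted p = 4.46e-05). The surface proteins moved less evenly. CD83, a marker of activated antigen-presenting cells, had 9.04, 9.07 and 9.10 CPM with ML-60218, against 4.11, 4.34 and 4.56 CPM with DMSO (log2 1.06 ± 0.081, edgeR adjusted p = 1.60e-07). ICAM1, an adhesion molecule, had 3.93, 4.35 and 3.83 CPM with ML-60218, against 2.71, 2.96 and 3.26 CPM with DMSO (log2 0.44 ± 0.088, edgeR adjusted p = 0.00191). CD83 thus rose 2.09-fold and ICAM1 1.36-fold.

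Chemokines gave weaker evidence. CCL2, which attracts monocytes, had 24.8, 24.0 and 25.2 CPM with ML-60218, against 13.8, 16.4 and 13.5 CPM with DMSO (log2 0.76 ± 0.21, edgeR adjusted p = 0.0404). Although the groups did not overlap, leaving out any 1 of the 6 libraries moved CCL2 over the threshold, with adjusted p from 0.0606 to 0.12. CXCL8, which attracts neutrophils, had 4.91, 5.83 and 5.02 CPM with ML-60218, against 2.94, 3.32 and 2.30 CPM with DMSO. Its groups did not overlap either, and it just missed the threshold (log2 0.88, edgeR adjusted p = 0.058), while DESeq2 called it (adjusted p = 0.0024).

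The largest called changes in each direction were in genes outside signalling. THBS1, the matrix protein thrombospondin, had 5.36, 6.01 and 3.96 CPM with ML-60218, against 1.65, 2.12 and 1.38 CPM with DMSO (log2 1.56 ± 0.34, edgeR adjusted p = 0.0145). That call was lost when the fit took transcript length into account (log2 1.07, adjusted p = 0.164) and without DMSO replicate 1, DMSO replicate 3 or ML-60218 replicate 2. SERPINB2 had 31.6, 21.9 and 35.2 CPM with ML-60218, against 89.0, 90.1 and 80.0 CPM with DMSO. It was 2.92-fold lower (log2 -1.55 ± 0.20, edgeR adjusted p = 0.00121), and no other gene of the 36 fell.

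CHX alone moved most of the genes, and its comparison uses the same DMSO libraries as that of ML-60218. With CHX, 29 of the 36 tested genes were higher and 3 lower, against 33.9% higher and 32.8% lower over all genes tested. The median log2 fold change was 1.06 over the 36 genes and -0.004 over all genes, with 18 genes higher and 2 lower by more than 2-fold. All 5 subunits, all 4 IkB proteins, all 3 feedback regulators and all 3 surface proteins rose, as did 3 of 4 signalling proteins. BIRC2, CXCL2, PTGS2 and CCL2 did not pass the test. The summed level of the 12 monocytic markers was 4196 to 4513 CPM with CHX against 5946 to 6499 CPM with DMSO, and its part in these results was not tested.

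The early shut-off genes rose strongly. TNFAIP3 had 230.5, 209 and 229 CPM with CHX, against 28.4, 25.3 and 28.1 CPM with DMSO (log2 3.03 ± 0.066, edgeR adjusted p = 1.97e-13). NFKBIA had 219.5, 213 and 218 CPM with CHX, against 50.4, 48.7 and 49.8 CPM with DMSO (log2 2.13 ± 0.041, edgeR adjusted p = 2.05e-17). These are rises of 8.17-fold and 4.37-fold with groups far apart. RELB had 40.0, 38.8 and 41.1 CPM with CHX, against 3.997, 4.88 and 4.76 CPM with DMSO (log2 3.13 ± 0.071, edgeR adjusted p = 1.91e-16). Other subunits had smaller changes, NFKB1 by log2 0.80 ± 0.037 and RELA by log2 0.32 ± 0.036 (edgeR adjusted p = 1.72e-12 and 3.47e-07). RELA had 75.9, 77.8 and 78.4 CPM with CHX, against 63.6, 61.5 and 61.3 CPM with DMSO.

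BIRC3, an inhibitor of apoptosis that also ubiquitinates signalling proteins, had 57.3, 51.5 and 57.8 CPM with CHX, against 1.48, 2.04 and 1.80 CPM with DMSO. It rose 31.1-fold (log2 4.96 ± 0.14, edgeR adjusted p = 7.00e-11). ICAM1 had 67.8, 65.6 and 66.7 CPM with CHX, against 2.71, 2.96 and 3.26 CPM with DMSO, a 22.4-fold rise (log2 4.48 ± 0.064, edgeR adjusted p = 5.78e-19). Both genes were scarce in DMSO cells. THBS1 had 30.7, 20.1 and 31.9 CPM with CHX, against 1.65, 2.12 and 1.38 CPM with DMSO (log2 3.99 ± 0.28, edgeR adjusted p = 1.14e-06). CXCL10, a chemokine for T cells, had 60, 67 and 67 reads with CHX, against 1, 0 and 3 reads with DMSO. By summed reads its ratio was 45.4, with a 95% exact counting interval of 17.4 to 168 that covers counting error only, and its fitted change passed the test (edgeR adjusted p = 3.77e-09).

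The cytokines parted. IL1B had 29.6, 23.2 and 28.9 CPM with CHX, against 5.12, 4.93 and 4.65 CPM with DMSO (log2 2.48 ± 0.12, edgeR adjusted p = 5.03e-10). TNF went the other way, with 3.82, 4.16 and 3.84 CPM with CHX, against 7.91, 8.07 and 8.88 CPM with DMSO (log2 -1.07 ± 0.098, edgeR adjusted p = 1.76e-08). SERPINB2 with 36.8, 22.1 and 34.2 CPM with CHX, against 89.0, 90.1 and 80.0 CPM with DMSO, fell too (log2 -1.48 ± 0.20, edgeR adjusted p = 0.000181). The third gene that fell was CCL5, by 0.37 on the log2 scale. CXCL8 had 6.42, 6.95 and 6.22 CPM with CHX, against 2.94, 3.32 and 2.30 CPM with DMSO (log2 1.19 ± 0.27, edgeR adjusted p = 0.00291). CCL2 had 20.1, 11.1 and 17.8 CPM with CHX, against 13.8, 16.4 and 13.5 CPM with DMSO, and these groups overlapped (log2 0.17, edgeR adjusted p = 0.523).

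**Figure D2:**
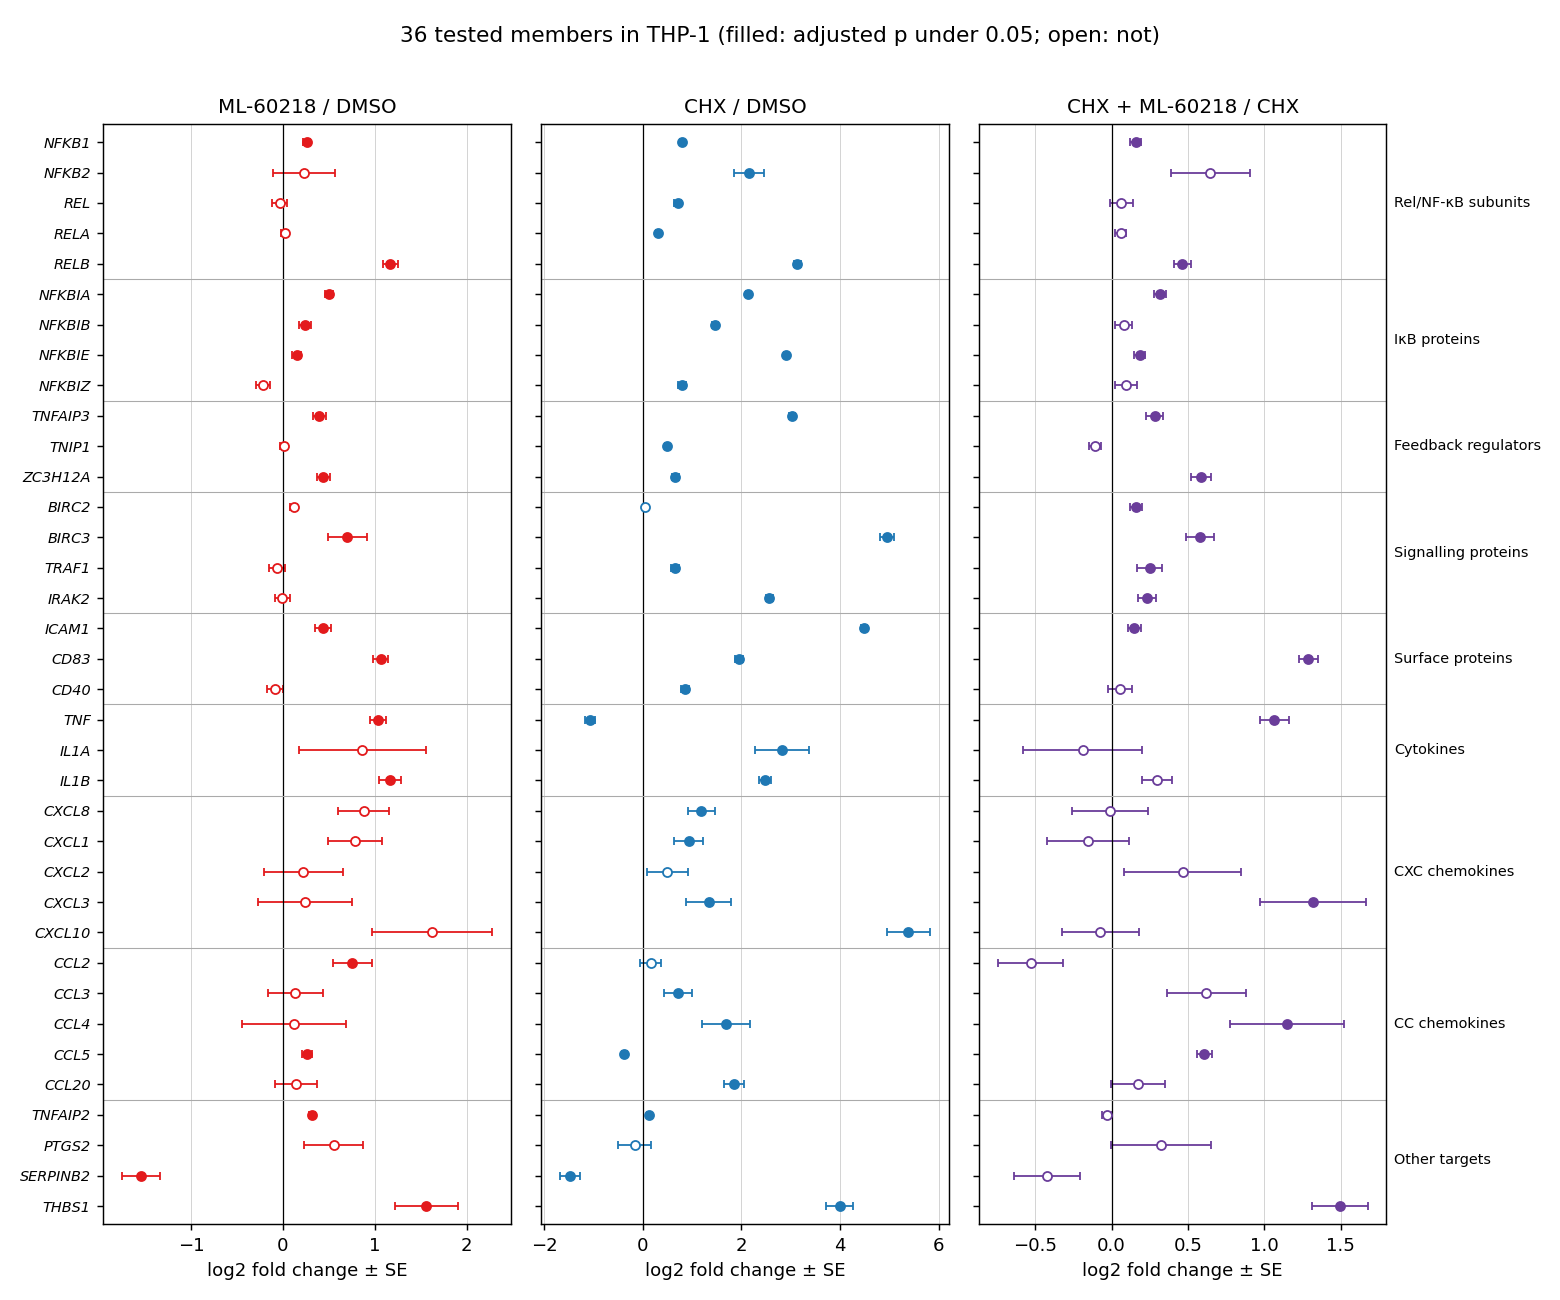
Log2 fold change with its SE for the 36 tested genes by role, for ML-60218 over DMSO, CHX over DMSO, and CHX with ML-60218 over CHX, with filled points for an adjusted p under 0.05. With CHX, BIRC3 reaches 4.96 and TNF lies at -1.07, and the 3 panels have different axes.

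The AU-rich nonamer was set against the size of the change as a description. With CHX, the 17 tested genes that hold it had a median log2 fold change of 1.34 and 13 of them rose. The 19 without it had a median of 0.798 and 16 rose. The share that rose was thus 76.5% with the nonamer and 84.2% without it, against the order of the medians. Over all genes tested, medians were 0.069 with the nonamer and -0.026 without it, and 40.6% and 33.6% rose. Those with the nonamer also had longer 3′ UTRs, at a median of 2868 bases against 1022 bases without it. Among the 36 genes these medians were 721 and 834 bases, and the part of length was not tested. With ML-60218 over DMSO the medians were 0.555 with the nonamer and 0.242 without it among the 36 genes. Their calls again ran the other way, with 5 of 17 higher with the nonamer and 11 of 19 without it. Several genes that hold it, among them IL1A, CXCL2 and CXCL10, had few reads in THP-1, which limits calls. Over all genes the medians were 0.007 with the nonamer and -0.011 without it, and 11.8% and 9.35% rose. With ML-60218 on top of CHX the medians were 0.298 and 0.159, and 6 of 17 and 11 of 19 rose. Over all genes they were 0.018 with the nonamer and -0.010 without it, and 15% and 8.82% rose. TNF, with the densest run of nonamers printed above, rose with ML-60218 and fell with CHX.

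ML-60218 on top of CHX was then set against CHX alone, whose libraries also served in the comparison with DMSO. With both agents, 17 of 36 genes were higher and none was lower by edgeR, against 9.3% higher and 8.3% lower over all genes tested. TNIP1 and CCL2 were the 2 genes lower at an unadjusted p under 0.05, and CCL2 was called lower when CHX replicate 2 was left out. The median log2 fold change was 0.209 over the 36 genes and -0.004 over all genes. All 4 signalling proteins, 2 of 5 subunits, 2 of 4 IkB proteins, 2 of 3 feedback regulators, 2 of 3 surface proteins and 2 of 5 CC chemokines rose. The effect of ML-60218 without CHX and with it came from separate libraries. Of the genes, 12 were higher in both: BIRC3, CCL5, CD83, ICAM1, NFKB1, NFKBIA, NFKBIE, RELB, THBS1, TNF, TNFAIP3 and ZC3H12A. They are 75% of the 16 that rose without CHX and 70.6% of the 17 that rose with it, where over all genes the shares were 37.9% of 1416 and 37% of 1452.

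TNF had 7.71, 7.39 and 9.68 CPM with CHX and ML-60218, against 3.82, 4.16 and 3.84 CPM with CHX (log2 1.07 ± 0.097, edgeR adjusted p = 9.51e-07). ML-60218 thus gave a 2.10-fold rise with CHX and a 2.05-fold rise without it, from starting levels that differed. CD83 had 38.4, 39.6 and 45.5 CPM with CHX and ML-60218, against 16.4, 16.2 and 17.9 CPM with CHX (log2 1.29 ± 0.064, edgeR adjusted p = 1.81e-09). THBS1 had 68.4, 85.4 and 79.4 CPM with CHX and ML-60218, against 30.7, 20.1 and 31.9 CPM with CHX (2.82-fold, SE 0.18 on the log2 scale, edgeR adjusted p = 0.000718). None of these 3 genes overlapped between the groups.

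Of the genes that follow, all but CCL4 rose by less than TNF. CCL5 had 61.5, 62.7 and 62.2 CPM with CHX and ML-60218, against 40.1, 41.6 and 40.6 CPM with CHX (log2 0.61 ± 0.051, edgeR adjusted p = 3.77e-07). ZC3H12A had 14.9, 16.1 and 16.2 CPM with CHX and ML-60218, against 10.8, 9.90 and 10.8 CPM with CHX (log2 0.58 ± 0.066, edgeR adjusted p = 1.07e-05). NFKBIA had 257, 272 and 281 CPM with CHX and ML-60218, against 219.5, 213 and 218 CPM with CHX (log2 0.32 ± 0.037, edgeR adjusted p = 1.31e-05). TNFAIP3 and NFKB1 rose by log2 0.28 and 0.16. ICAM1 rose by log2 0.15, and that call was lost without any 1 of the 3 CHX libraries, without replicate 3 of CHX with ML-60218, and with a length offset. CCL4 had 0.743, 1.23 and 1.57 CPM with CHX and ML-60218, against 0.472, 0.634 and 0.486 CPM with CHX (log2 1.15 ± 0.38, edgeR adjusted p = 0.0438), a level where few reads decide, and the call was lost with DESeq2 (adjusted p = 0.0768), without any 1 of the CHX libraries and without replicate 2 or 3 of CHX with ML-60218.

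Several genes did not pass the test on top of CHX, among them IL1B and CCL2, which had risen with ML-60218 alone. IL1B had 33.8, 30.3 and 36.3 CPM with CHX and ML-60218, against 29.6, 23.2 and 28.9 CPM with CHX (log2 0.30, edgeR adjusted p = 0.0547). IL1B was called with DESeq2 (adjusted p = 0.0288), with a minimum mean of 5 CPM, and without CHX replicate 1, replicate 2 of CHX with ML-60218, or ML-60218 replicate 2. CCL2 had 12.8, 8.95 and 12.2 CPM with CHX and ML-60218, against 20.1, 11.1 and 17.8 CPM with CHX (log2 -0.53, edgeR adjusted p = 0.139). Without CHX replicate 2 it was called lower (log2 -0.74, edgeR adjusted p = 0.00443). SERPINB2 was at 23.3, 23.7 and 22.5 CPM with CHX and ML-60218, against 36.8, 22.1 and 34.2 CPM with CHX, with overlapping groups (edgeR adjusted p = 0.246). RELA was at log2 0.06 and CXCL8 at log2 -0.008 (edgeR adjusted p = 0.282 and 0.991).

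CCL3 and CCL4 have near-identical gene copies that can take up their reads. Summed with its copy CCL3L3, CCL3 had 5.16, 4.83 and 5.30 CPM with ML-60218, against 3.61, 3.37 and 3.65 CPM with DMSO. The sum rose (log2 0.524, edgeR adjusted p = 0.00225), where CCL3 alone did not pass (log2 0.134, edgeR adjusted p = 0.823). With CHX the sum did not pass (log2 0.124, edgeR adjusted p = 0.33), where CCL3 alone did. Summed with its copy CCL4L2, CCL4 rose with ML-60218 on top of CHX (log2 1.05, edgeR adjusted p = 0.00885) and with CHX (log2 1.58, edgeR adjusted p = 0.000209). Values of CCL3 are therefore uncertain by gene. CXCL1, CXCL2 and CXCL3 are close paralogs too, and how reads were split among them was not tested.

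Whether CHX changed the response to ML-60218 was tested as an interaction, the effect with CHX minus the effect without it. It was called for 1 higher and 4 lower of the 36 genes, against 3.13% higher and 4.17% lower over all genes tested. RELB differed by log2 -0.71 ± 0.097 (edgeR adjusted p = 0.000364), from a change of 0.46 with CHX against 1.17 without it. IL1B differed by log2 -0.87 ± 0.16 (edgeR adjusted p = 0.00595) and CCL2 by log2 -1.29 ± 0.30 (edgeR adjusted p = 0.037). For RELB and IL1B the smaller log2 change with CHX stood on a level already raised by CHX. The test compares ratios, so a smaller response here is not a smaller gain in CPM. RELB had 53.4, 54.5 and 57.2 CPM with CHX and ML-60218, against 40.0, 38.8 and 41.1 CPM with CHX. TNFAIP2 differed by log2 -0.35 ± 0.049 and CCL5 by log2 0.34 ± 0.071 (edgeR adjusted p = 0.000396 and 0.00636). The CCL2 call was lost with the replicate block (adjusted p = 0.0537) and on leaving out any 1 of 10 of the 12 THP-1 libraries, and the TNFAIP2 call with a length offset. TNF and THBS1, at log2 0.035 and -0.067, gave no call. NFKBIA, at log2 -0.186, just missed the threshold (edgeR adjusted p = 0.0501), while DESeq2 called it (adjusted p = 0.0476).

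**Figure D3:**
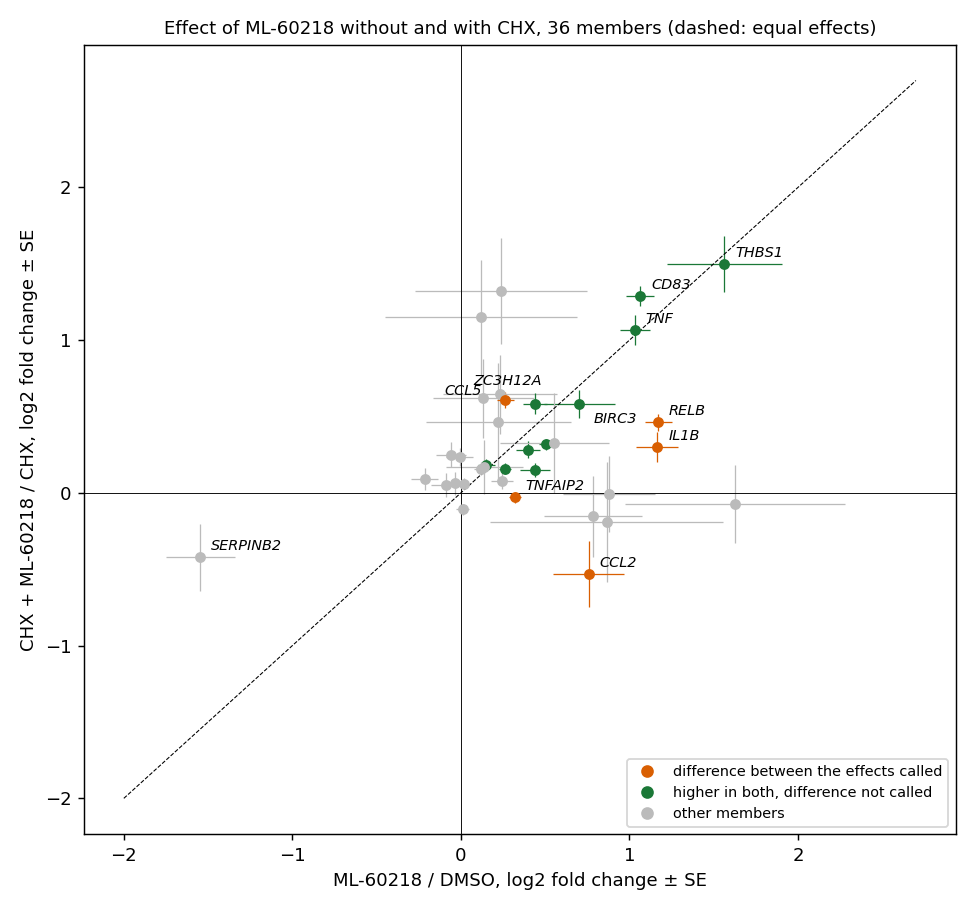
Effect of ML-60218 with CHX, vertical axis, against its effect without CHX, horizontal axis, as log2 fold changes with SE for 36 genes, where the dashed line marks equal effects. TNF, CD83 and THBS1 lie near the line, while RELB, IL1B and CCL2 lie below it.

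Lists of pathway genes outside the set give the surroundings, to be read against the shares of all genes called. These were 9.07% higher and 7.54% lower with ML-60218, 33.9% and 32.8% with CHX, and 9.3% and 8.3% with ML-60218 on top of CHX. Of 28 tested further NF-kB targets, 10 rose and 1 fell with ML-60218, 22 rose and 4 fell with CHX, and 12 rose and 2 fell with ML-60218 on top of CHX. BCL3, a nuclear IkB protein, averaged 8.14 CPM with ML-60218 against 3.53 CPM with DMSO (log2 1.20, edgeR adjusted p = 1.14e-07), and 30.9 CPM with CHX. GADD45B, a stress gene, averaged 80.9 CPM with CHX against 14.9 CPM with DMSO. OSM, a cytokine, averaged 4.43 CPM with CHX and ML-60218 against 1.60 CPM with CHX (log2 1.47). Upstream, of 19 IKK and ubiquitin enzymes, 1 rose and 1 fell with ML-60218, 9 rose and 5 fell with CHX, and 2 rose with ML-60218 on top of CHX. Of 26 receptors and adaptors, 8 rose and 4 fell with ML-60218, 13 rose and 4 fell with CHX, and 3 rose and 3 fell with ML-60218 on top of CHX. With ML-60218 alone, CD14, the co-receptor for bacterial lipopolysaccharide, rose by log2 0.505 and the IL-1 receptor gene IL1R1 by log2 0.567. The genes of that list that fell were TLR7 (log2 -0.542), TLR8 (log2 -0.347), TLR2 (log2 -0.277) and IRAK3 (log2 -0.146). CD14, which is also among the monocytic markers, fell with CHX (log2 -0.403).

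Decay factors for inflammatory mRNA were mixed, with 2 of 16 higher and 2 lower with ML-60218, and 6 higher and 9 lower with CHX. With CHX, ZFP36L2, which binds AU-rich elements, averaged 242 CPM against 716 CPM with DMSO (log2 -1.56). CNOT1, the scaffold of the deadenylase complex, fell by 1.03 on the log2 scale, and the exonuclease XRN1 rose by log2 1.33. With ML-60218 on top of CHX, ZFP36 averaged 100.3 CPM against 71.0 CPM with CHX (log2 0.497). Of 9 inflammasome genes, 1 rose and 3 fell with ML-60218, 7 rose and 2 fell with CHX, and 4 fell with ML-60218 on top of CHX.

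In HEK293T, the knockdowns gave no single direction for these genes. POLR3G ASO called 15 of 29 tested genes higher and 4 lower, against 35% and 34.9% of all genes. POLR3G siRNA called 9 of 28 higher and 14 lower, against 37.1% and 38.4%. For POLR3GL, siE4 called 9 of 29 higher and 6 lower, against 26.5% and 29.2%. siE6 called 15 higher and 4 lower of 29, against 31.5% and 32.1%, and siE8 called 7 higher and 5 lower of 29, against 29.4% and 28.9%. Median log2 fold changes were 0.417 for the ASO, -0.142 for POLR3G siRNA, 0.05 for siE4, 0.395 for siE6 and 0.019 for siE8.

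With POLR3G ASO, all 4 IkB proteins rose. ICAM1 had 4.11, 4.03 and 4.01 CPM with the ASO, against 1.76, 1.43 and 1.60 CPM with scramble (log2 1.34 ± 0.14, edgeR adjusted p = 1.94e-07). CCL5 had 16.4, 15.1 and 15.7 CPM with the ASO, against 6.33, 7.07 and 6.37 CPM with scramble (log2 1.26 ± 0.074, edgeR adjusted p = 1.23e-10). These groups lay well apart. TNF, nearly silent in HEK293T, had 0.865, 0.872 and 1.21 CPM with the ASO, against 0.352, 0.146 and 0.0872 CPM with scramble, and passed the test at log2 2.31 on few reads. CCL20, a chemokine of mucosal tissues, had 1.46, 1.20 and 1.72 CPM with the ASO, against 0.615, 0.409 and 0.698 CPM with scramble (log2 1.34 ± 0.25, edgeR adjusted p = 0.000115). RELB had 3.73, 3.28 and 4.71 CPM with the ASO, against 1.96, 2.07 and 1.92 CPM with scramble (log2 0.97 ± 0.15, edgeR adjusted p = 2.37e-05). NFKB1 fell, with 19.8, 22.1 and 21.3 CPM with the ASO, against 33.3, 30.2 and 32.1 CPM with scramble. With the ASO the summed HEK293T markers were 631.2 to 642.9 CPM, against 681.8 to 704.3 CPM with scramble, and their part was not tested. The summed monocytic markers were 38.6 to 40.6 CPM with the ASO against 7.79 to 8.98 CPM with scramble, 4 and 2 of the 12 markers reached 1 CPM, TYROBP was at 0 in both groups, and the part of these markers in the result was not tested.

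POLR3G siRNA lowered 4 of 5 subunits and all 4 tested CXC chemokines. CXCL8 had 0.316, 0.226 and 0.476 CPM with POLR3G siRNA, against 2.32, 1.93 and 2.85 CPM with control (log2 -2.80 ± 0.25, edgeR adjusted p = 7.03e-08). CXCL2 had 0.267, 0.294 and 0.401 CPM with POLR3G siRNA, against 1.01, 1.08 and 1.33 CPM with control (log2 -1.83 ± 0.25, edgeR adjusted p = 8.98e-06). Both chemokines were scarce in these cells. TNIP1, a partner of A20, had 25.2, 23.5 and 23.8 CPM with POLR3G siRNA, against 67.5, 70.2 and 65.7 CPM with control (log2 -1.49 ± 0.038, edgeR adjusted p = 3.07e-14). The summed HEK293T markers were 1828 to 1927 CPM with POLR3G siRNA against 799.8 to 820.5 CPM with control, and their part in these results was not tested. NFKB1 was the subunit that rose, with 64.6, 62.0 and 61.3 CPM with POLR3G siRNA, against 23.4, 26.0 and 24.7 CPM with control (log2 1.34 ± 0.041, edgeR adjusted p = 1.96e-13).

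The 2 ways of targeting POLR3G, which share no library, were compared gene by gene. Of 28 genes tested in both, 14 were called in both, and 8 of these went in opposite directions, or 57.1%. Over all genes, 2855 of 8289 called in both were opposite, or 34.4%. BIRC3, CXCL8, NFKBIA, NFKBIZ, REL and RELB were higher with the ASO and lower with the siRNA, and CD83 and NFKB1 the reverse. IRAK2, NFKBIB, NFKBIE and THBS1 were higher in both, and TNIP1 and TRAF1 lower in both.

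**Figure D4:**
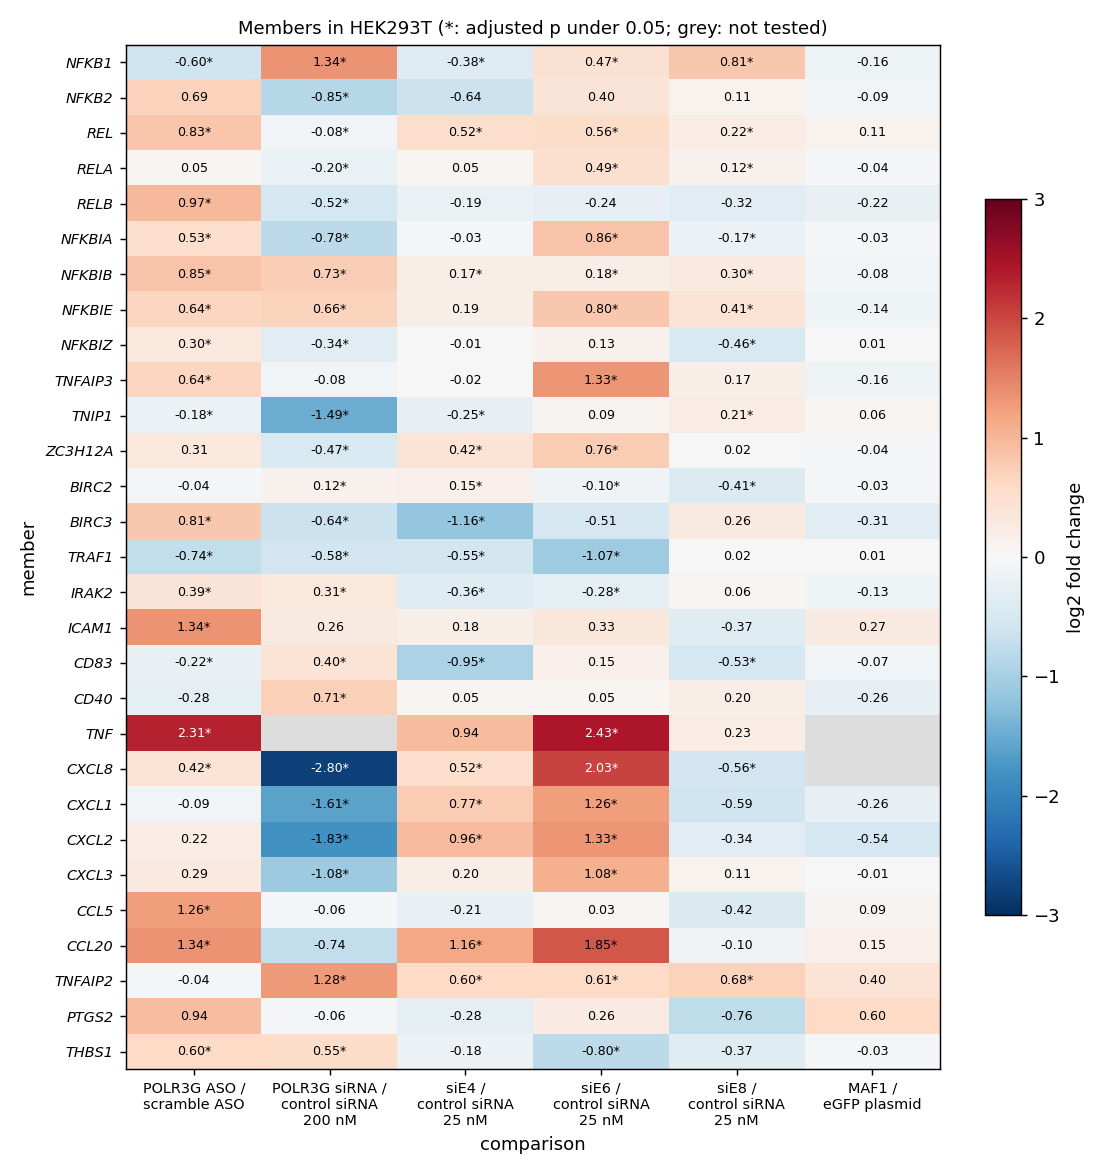
Log2 fold change of each gene in the HEK293T comparisons, as a heat map with a row per gene ordered by role and a column per comparison, an asterisk for an adjusted p under 0.05 and grey where a gene was not tested. CXCL8 is at -2.80 with POLR3G siRNA and at 2.03 with siE6, and no gene is called with MAF1.

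The siRNAs against POLR3GL share their control libraries, so their values are given side by side. siE6 gave CXCL8 12.4, 11.3 and 11.4 CPM, against 2.75, 2.92 and 2.92 CPM with control (log2 2.03 ± 0.14, edgeR adjusted p = 4.80e-10). TNFAIP3 had 21.9, 23.2 and 24.1 CPM with siE6, against 8.55, 9.52 and 9.45 CPM with control (log2 1.33 ± 0.078, edgeR adjusted p = 4.50e-11). siE6 thus raised a chemokine and a feedback gene beyond any control library. CCL20 averaged 1.97 CPM with siE6 against 0.542 CPM with control (log2 1.85 ± 0.27, edgeR adjusted p = 8.52e-06). CXCL2 averaged 2.03 CPM with siE6 against 0.803 CPM with control (log2 1.33 ± 0.25, edgeR adjusted p = 0.000115). The summed HEK293T markers were 481.5 to 523.9 CPM with siE6 against 1100 to 1185 CPM with control, and their part in these results was not tested.

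siE4 lowered BIRC3, with 2.12, 2.15 and 1.29 CPM, against 4.60, 4.49 and 3.29 CPM with control (log2 -1.16 ± 0.23, edgeR adjusted p = 0.000514). CD83 had 5.39, 5.59 and 5.72 CPM with siE4, against 9.90, 11.1 and 11.2 CPM with control (log2 -0.95 ± 0.085, edgeR adjusted p = 2.61e-08). The summed HEK293T markers were 930 to 948 CPM with siE4 against 1100 to 1185 CPM with control, and the 3 fibroblast markers 9.05 to 11.1 CPM with siE4 against 26.3 to 29.1 CPM with control. Their part in these results was not tested. Chemokines rose with siE4, CCL20 by log2 1.16 ± 0.28 and CXCL2 by log2 0.96 ± 0.25 (edgeR adjusted p = 0.00179 and 0.00343). With siE8, CXCL8 fell, to 2.40, 1.46 and 1.92 CPM, against 2.75, 2.92 and 2.92 CPM with control (log2 -0.565 ± 0.16, edgeR adjusted p = 0.00456). That call was lost with all HEK293T libraries in the fit (adjusted p = 0.0573). NFKB1 had 39.4, 41.5 and 44.6 CPM with siE8, against 22.3, 23.8 and 25.6 CPM with control (log2 0.81 ± 0.064, edgeR adjusted p = 3.33e-09). CD83 and NFKBIZ fell with siE8 by 0.53 and 0.46 on the log2 scale, and NFKBIZ by 0.70 with a length offset. With siE8 the summed HEK293T markers were 992.1 to 1052 CPM, against 1100 to 1185 CPM with control, and their part was not tested.

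**Figure D5:**
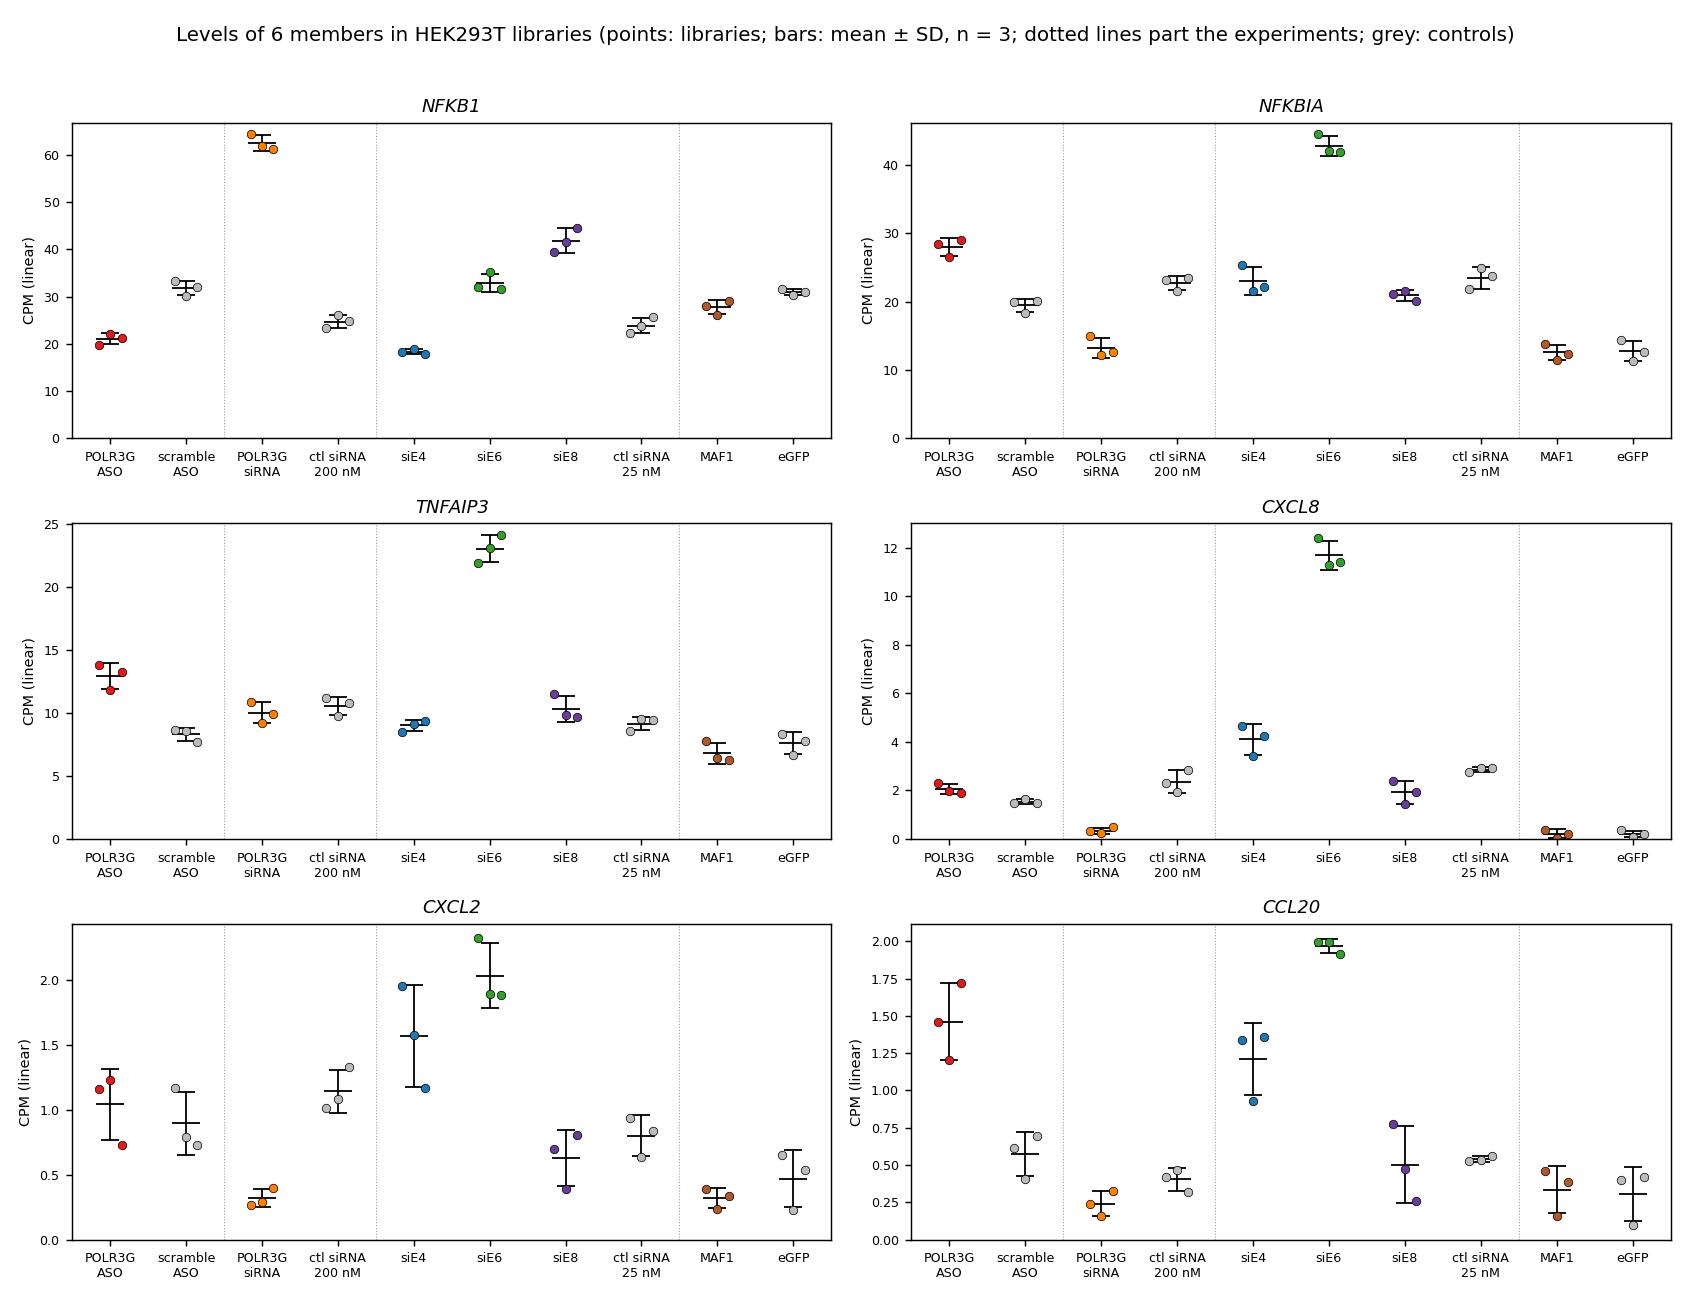
Level of 6 of the genes in the 10 HEK293T groups, in CPM on a linear axis from 0, with a point for each library and bars for the mean ± SD (n = 3), and dotted lines between experiments. CXCL8 lies between 11.3 and 12.4 CPM with siE6, between 1.46 and 2.40 CPM with siE8, and between 2.75 and 2.92 CPM in their control.

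MAF1 overexpression gave no called gene among the 27 tested, against 0.0379% higher and 0.0189% lower over all genes in edgeR's test. DESeq2 also called 0. By edgeR, 1 gene, NFKB1, was below an unadjusted p of 0.05 (log2 -0.156, edgeR adjusted p = 0.317). NFKB1 had 28.1, 26.1 and 29.1 CPM with MAF1, against 31.6, 30.3 and 30.99 CPM with eGFP. Log2 fold changes over the 27 genes ran from -0.538 to 0.605, with a median of -0.04.

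Counts for the pathway lists in HEK293T stand against 35% of all genes higher and 34.9% lower with the ASO, 37.1% and 38.4% with POLR3G siRNA, 26.5% and 29.2% with siE4, 31.5% and 32.1% with siE6, and 29.4% and 28.9% with siE8. The further NF-kB targets had 11 of 22 higher and 4 lower with POLR3G ASO, and 3 of 21 higher and 10 lower with POLR3G siRNA. SOD2, a mitochondrial antioxidant enzyme, averaged 638 CPM with the ASO against 329 CPM with scramble, and 143 CPM with POLR3G siRNA against 272 CPM with control. The POLR3GL siRNAs had 1 higher and 8 lower for siE4, 4 higher and 4 lower for siE6, and 1 higher and 7 lower for siE8. PLAU, the protease urokinase, fell by 1.81 on the log2 scale with siE4 and by 1.16 with siE8. Of 16 decay factors, 10 rose and 3 fell with the ASO, 12 rose and 2 fell with POLR3G siRNA, 10 rose and 2 fell with siE4, 12 rose and 2 fell with siE6, and 8 rose and 4 fell with siE8. IKK and ubiquitin enzymes, 19 genes, had 5 higher and 6 lower with the ASO, 11 and 6 with POLR3G siRNA, 7 and 4 with siE4, 5 and 8 with siE6, and 7 and 5 with siE8. Receptors and adaptors had 6 higher and 8 lower of 23 with the ASO, and 6 and 8 of 22 with POLR3G siRNA. With the POLR3GL siRNAs they had 4 higher and 6 lower of 21 for siE4, 7 and 6 for siE6, and 5 and 5 for siE8.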

How the data were processed

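The authors deposited, per the file headers, estimated counts (NumReads) and TPM per transcript for 42 libraries. The submitters' processing notes name bcl2fastq 2.20, Trim Galore, Salmon, DESeq2 and the build hg38. For other versions and the authors' annotation, the sources used here give nothing. Estimated counts were summed per gene with GENCODE 29: 158359 of 194142 transcripts were named by its primary annotation, and 10510 more, including most TNF and all NFKBIB reads, by its symbol table. The 25273 unnamed transcripts held 6.507% of reads and were left out. Sums were rounded, filtered with filterByExpr, scaled by TMM and tested with edgeR 4.0.16 (quasi-likelihood, R 4.3.3), with p-values adjusted over all genes tested. Scripts were tested on simulated data. DESeq2 1.42.0 and further settings were alternatives, and use of the primary annotation alone was chosen after seeing the data. The 37 genes and all lists were chosen with earlier results of these data known. Named genes were the called ones with the largest changes, at least 1 CPM and groups that did not overlap, up to 6 per THP-1 and 4 per HEK293T comparison, plus 10 fixed genes in THP-1. Replicate numbers come from the labels. Numbers were taken to pair samples where the deviations of all 3 same-numbered pairs correlated above 0.1, which held for siE8 and its control (0.396, 0.373 and 0.126). The same control libraries correlated at -0.265, -0.047 and -0.151 with the siE4 libraries of the same number. The reported fits, that of siE8 included, left the pairs out. A fit with the replicate block was an alternative, and it called 12 genes for siE8, as did the reported fit.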

Additional observations from a re-analysis of the deposited data

Results flagged for a closer look

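The response to ML-60218 differed with and without CHX in a test of the interaction (edgeR, 36 genes in the set) for 5 genes. Over all genes tested, the interaction was called higher for 3.13% and lower for 4.17%. CCL2 differed by log2 -1.289, IL1B by log2 -0.869, RELB by log2 -0.708, TNFAIP2 by log2 -0.35 and CCL5 by log2 0.344. The call of CCL2 was lost with the replicate block (edgeR adjusted p = 0.0537) and on leaving out most of the single THP-1 libraries. That of TNFAIP2 was lost with a length offset. IL1B and RELB rose with ML-60218 alone and had a smaller fitted log2 change on top of CHX, where RELB still passed the test. CHX alone had already raised both genes, and a smaller ratio is not a smaller gain in CPM. TNFAIP2 had 87.2, 87.7 and 93.0 CPM with CHX and ML-60218, against 90.8, 89.8 and 93.0 CPM with CHX. Without CHX it had 101, 108 and 103 CPM with ML-60218, against 83.4, 81.8 and 84.7 CPM with DMSO. CCL5 was the gene whose response was larger with CHX, at log2 0.61 against 0.26 without it.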

How the results depend on the processing

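Of 201 counts of called genes under alternatives over 10 comparisons, 197 stayed within 1.5 times the reported count. A minimum mean of 5 CPM left 11 called for POLR3G ASO, 11 for POLR3G siRNA, 8 for siE4 and 10 for siE6, since fewer genes were tested. Leaving out 1 library gave 13 to 20 for ML-60218, 30 to 32 for CHX, 13 to 18 for ML-60218 with CHX, 4 to 7 for the interaction, 17 to 20 for the ASO, 22 to 24 for POLR3G siRNA, 10 to 16 for siE4, 16 to 19 for siE6, 9 to 13 for siE8 and 0 for MAF1. With the replicate block the counts were 16, 32, 16 and 4 for the THP-1 comparisons in that order, 17 and 22 for POLR3G, 15, 18 and 12 for siE4, siE6 and siE8, and 0 for MAF1. Outside siE8 not every pair passed a correlation of 0.1, so the numbers were not taken to pair samples. As a hint from the data, each sample still correlated best with its own number for ML-60218 with CHX (0.18, 0.141 and 0.033) and for the ASO (0.119, 0.06 and 0.076). Of 1529 values for named genes, 1446 kept direction and side of the threshold, 48 lost a call, 20 gained one and 15 reversed, all in results not called. CXCL8 with ML-60218 on top of CHX was 0.001 with DESeq2 and with its size factors, and ran from -0.388 to 0.225 on leaving out 1 library. The THBS1 interaction was 0.271 with a length offset and ran from -0.257 to 0.065 on leaving out 1 library. Leaving out 1 library also gave -0.006 to 0.391 for CCL2 with CHX, -0.101 to 0.108 for the TNF interaction and -0.009 to 0.045 for RELA with ML-60218. The causes were not tested. Unnamed transcripts, 6.014% to 7.246% of reads per library, limit every gene sum, and genes under 1 CPM rest on few reads.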

Other observations

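With POLR3G ASO, single genes of the pathway lists had large changes in HEK293T. LTA, a cytokine next to TNF, averaged 5.08 CPM with the ASO against 0.369 CPM with scramble (log2 3.77). TLR2, a receptor for bacterial lipoproteins, rose by log2 1.95 and the inflammasome sensor NLRC4 by log2 1.96 (edgeR). In the lists they come from, 11 of 22 further NF-kB targets rose and 4 fell, 6 of 23 receptors and adaptors rose and 8 fell, and 4 of 6 tested inflammasome genes rose and 1 fell, where 35% of all genes rose and 34.9% fell. The monocytic markers that were also higher with the ASO are given beside its other results, and their part was not tested.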
